A study of Sus scrofa with 35 samples.

Results

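The circadian clock genes were followed in the blood of growing pigs kept at a thermoneutral or a raised room temperature. The list held 10 members, PER1, PER2, PER3, CRY1, CRY2, ARNTL, CLOCK, NR1D1, NR1D2 and DBP, and a member was measured where the gene name of a probe on the array, in upper case, equalled its symbol. That rule found 13 probes for 8 of the 10 members, out of 10922 genes on the array with a symbol in the reference tables. No probe carried the name CLOCK or DBP. The table of normalized values held 12 of the 13 probes, and the probe of NR1D1 outside it (O11226) was read from the scanner files.

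The cells of most tissues, blood leukocytes included, carry a clock made of feedback loops of transcription. ARNTL (also called BMAL1) pairs with CLOCK and activates the PER and CRY genes, whose proteins come back to the nucleus and repress that pair. NR1D1 and NR1D2 (REV-ERB alpha and beta) are nuclear receptors that repress ARNTL and close another loop, and DBP is a transcription factor of the clock's output. Transcripts of these genes rise and fall over the day, and body temperature is known as a cue that can set the phase of clocks in peripheral tissues.

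RNA came from the whole blood of 35 castrated male pigs, 1 array per pig, and the arrays were 1-colour Agilent pig arrays. Breeds were Creole (CR), a local breed of the Caribbean, Large White (LW), and their cross (F1). TN pigs lived at 24 °C and were slaughtered before the room was heated. HS pigs were slaughtered after it, and their room is labelled 30 °C in the sample labels but 32 °C for 5 days in the growth protocol of the same labels. CR TN held 5 pigs, and CR HS, F1 TN, F1 HS, LW TN and LW HS held 6 pigs each. Each pig was sampled at slaughter, so no pig was measured in both climates, and day of slaughter and climate cannot be told apart. The hour of blood sampling is not given in the sources used here, and clock transcripts depend on the hour, so a difference in clock hour between the TN and HS sampling cannot be told apart from climate. Pen, sire and dam carry no label.

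Values are log2 intensities after quantile normalization by the authors, and all differences below are HS minus TN on that log2 scale. A probe was called when its adjusted p from limma, over all 39072 probes of the table, was below 0.05. An intensity depends on the probe as well as on the RNA, so levels were compared between pigs for 1 probe and never between probes. Whole blood is a mixture of cells, and fewer cells of a type and less RNA per cell cannot be told apart in it. Marker probes of blood cells were present on the arrays: the probes of AHSP (erythroid), CXCR2 (neutrophil) and CD3E (T cell) were well above background on all 35 arrays. In HS pigs 4 of 9 erythroid markers fell and 1 rose. In the same comparison 1 of 5 monocyte markers rose (CSF1R by 0.51), as did 2 of 7 T cell markers (CD2 by 0.33 and CD4 by 0.31). Among B cell markers 2 of 4 rose (CD79B by 0.35 and MS4A1 by 0.38). None of 7 neutrophil, 3 cytotoxic cell and 3 platelet markers was called. These counts stand beside 34.8% of all probes called, so they are not read as shifts of cell types. The mean of the 4 B cell markers ran from 9.07 to 10.5 over the 17 TN pigs and from 9.20 to 10.7 over the 18 HS pigs, that of the 7 T cell markers from 9.29 to 10.8 and from 9.34 to 10.4, and that of the 5 monocyte markers from 7.03 to 8.11 and from 7.29 to 8.53. The part of these marker differences in the clock gene differences was not tested, apart from fits with the erythroid and neutrophil means as covariates. The F1 TN arrays were dimmer than the F1 HS arrays, with a 75th percentile of intensity of 149.9 ± 28.3 (SD, n = 6) against 237.9 ± 35.6 (SD, n = 6).

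The probe sequences are shown for the genes in which several probes were present and for PER1, whose probe overlaps another probe of the array, since for CRY2, NR1D1, ARNTL and CRY1 a result depended on which probe was read. Each is the 60-base probe as the scanner files give it, written 5′ to 3′ in lower case. The files name no genome build, and positions in the genome are not given here.
CRY2, A_72_P332498: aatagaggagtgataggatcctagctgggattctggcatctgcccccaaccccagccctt
CRY2, O8368: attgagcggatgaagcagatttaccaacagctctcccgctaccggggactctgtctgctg
NR1D1, A_72_P186261: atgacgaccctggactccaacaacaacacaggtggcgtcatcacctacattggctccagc
NR1D1, O11226: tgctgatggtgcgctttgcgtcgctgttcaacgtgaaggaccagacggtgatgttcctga
ARNTL, A_72_P481317: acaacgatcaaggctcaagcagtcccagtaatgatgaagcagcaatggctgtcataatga
ARNTL, A_72_P035936: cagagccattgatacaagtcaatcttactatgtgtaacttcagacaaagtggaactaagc
ARNTL, A_72_P044041: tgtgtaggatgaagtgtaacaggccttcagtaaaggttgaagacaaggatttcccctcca
CRY1, A_72_P255677: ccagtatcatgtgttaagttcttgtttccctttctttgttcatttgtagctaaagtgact
CRY1, A_72_P453794: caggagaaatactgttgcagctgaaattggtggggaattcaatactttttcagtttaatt
PER1, O12878: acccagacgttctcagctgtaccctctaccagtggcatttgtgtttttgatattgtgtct
No other probe of the array shared 20 bases or more with a clock gene probe on either strand, apart from the PER1 probe, which shared 49 bases with the probe A_72_P442350. GC content ran from 35% for both CRY1 probes to 55% for both CRY2 and both NR1D1 probes.

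Across the 3 breeds, HS and TN pigs differed in 2 of the 12 clock gene probes, and 34.8% of all probes in the table were called in the same comparison (13601 of 39072). Both called probes were lower in HS pigs: CRY2 A_72_P332498 fell by 0.61 and NR1D1 A_72_P186261 fell by 0.18. For each of these genes another probe had a value of the opposite sign, so no direction is given for CRY2 or NR1D1 as genes. The probes of PER1, PER2, PER3, CRY1, ARNTL and NR1D2 were not called. Over the 12 probes, 5 differences were above 0 and 7 below, with a median of -0.03 against 0.06 over all probes.

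**Figure D1:**
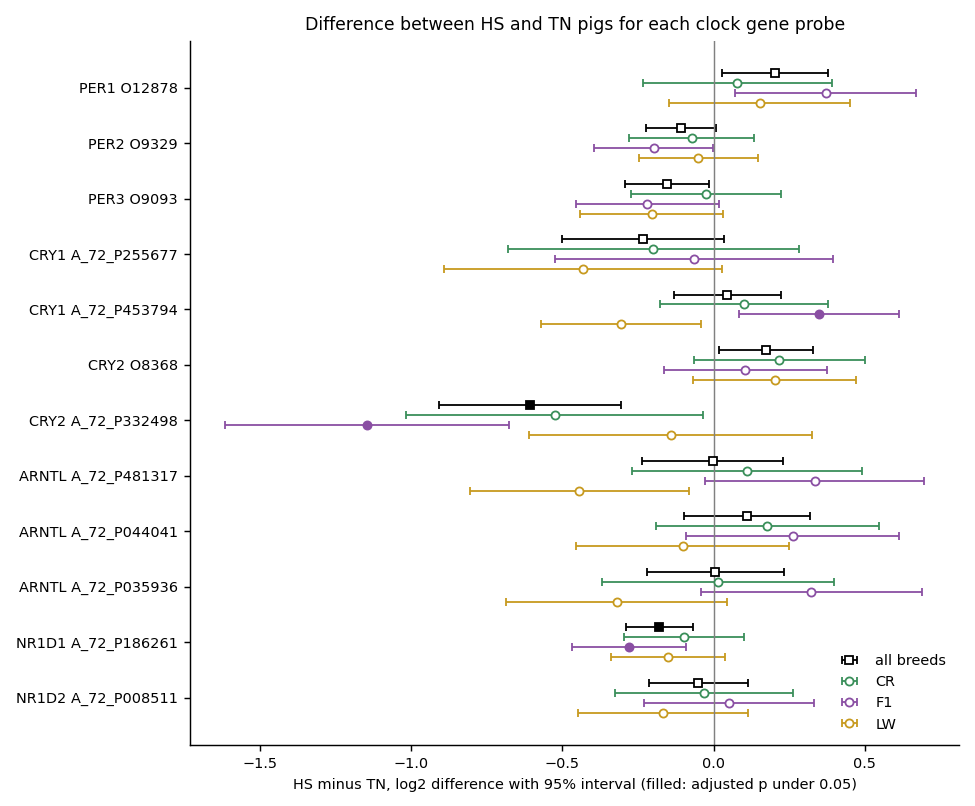
Difference between HS and TN pigs (log2 scale, horizontal axis) for each of the 12 clock gene probes in the value table, for all breeds together (squares) and for CR, F1 and LW (circles). Bars are 95% intervals (1.96 SE), and filled symbols have an adjusted p under 0.05. The difference of CRY2 A_72_P332498 in F1 (-1.15) lies farthest from 0, and the other CRY2 probe, O8368, lies above 0 in every breed.

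The activator of the loop, ARNTL, had no called difference between the climates over all breeds. Its brightest probe, A_72_P481317, read 6.35, 6.46, 6.63, 6.87 and 7.53 in the 5 CR TN pigs, and ran from 6.67 to 6.998 in CR HS (median 6.90). It ran from 6.27 to 6.90 in F1 TN (median 6.46) and from 6.41 to 7.22 in F1 HS (median 6.89). In LW TN it ran from 6.36 to 7.62 (median 6.85), and in LW HS from 6.32 to 6.65 (median 6.505). F1 HS pigs thus lay mostly above F1 TN pigs and LW HS pigs mostly below LW TN pigs, with overlap in both breeds. The difference was -0.003 over all breeds (95% interval -0.24 to 0.23, adjusted p = 0.987, limma), 0.33 ± 0.18 (SE) in F1 and -0.44 ± 0.18 (SE) in LW, with adjusted p of 0.145 and 0.563. The F1 effect was 0.78 ± 0.26 (SE) above the LW effect, which did not pass after adjustment (adjusted p = 0.122, limma).

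The 3 ARNTL probes did not all vary alike. A_72_P481317 and A_72_P035936 varied together across pigs after removal of the group means (r = 0.93, rho = 0.90, permutation p = 1e-05 for each, the smallest the permutations can give, adjusted p = 6e-05, n = 35). Without the 2 pigs farthest from the median r was 0.88, and within slides it ran from 0.81 to 0.95. A_72_P044041 followed neither of them, with r of -0.15 and -0.25 (adjusted p = 0.615 and 0.425, permutation test). In the breeds, A_72_P035936 repeated the values of the brightest probe, with 0.32 ± 0.19 (SE) in F1 and -0.32 ± 0.19 (SE) in LW, while A_72_P044041 gave 0.26 ± 0.18 and -0.10 ± 0.18 (SE). In LW TN, 1 pig had 7.91 for A_72_P044041, while the other 5 lay between 6.25 and 6.77.

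Among the period genes, which encode repressors of the ARNTL and CLOCK pair, PER1 had the only value above 0. Its probe read 9.45, 9.48, 9.58, 9.75 and 9.90 in the CR TN pigs and from 9.11 to 10.24 (median 9.75) in CR HS. In F1 it ran from 9.26 to 9.81 (median 9.55) in TN and from 9.59 to 10.36 (median 9.91) in HS, and in LW from 9.43 to 9.94 (median 9.80) in TN and from 9.69 to 10.13 (median 9.86) in HS. The groups overlapped in each breed, and 14 of the 18 HS pigs were above the TN mean of their own breed. The difference of 0.20 ± 0.09 (SE; 95% interval 0.03 to 0.38) missed the threshold (adjusted p = 0.0720, limma), and it was 0.08 in CR, 0.37 in F1 (adjusted p = 0.0526) and 0.15 in LW. Within the 4 slides that allowed it, the difference ran from 0.05 to 0.26.

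The overlapping probe A_72_P442350, which the files name only by a transcript identifier and which the member rule did not include, was looked at after its overlap with PER1 was seen. It followed the PER1 probe across pigs (r = 0.94 after removal of the group means, n = 35), and the shared bases mean that these are not independent readings. Its difference was 0.25 ± 0.09 (SE, adjusted p = 0.0351, limma), with 0.04 in CR, 0.44 in F1 and 0.24 in LW. The pair of readings therefore stood on either side of the threshold, at adjusted p of 0.0720 and 0.0351.

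PER2 and PER3 had values below 0 in all 3 breeds and were not called. The PER2 probe ran from 7.27 to 7.95 over all 35 pigs, and its difference was -0.11 ± 0.06 (SE, adjusted p = 0.145), with -0.07 in CR, -0.20 in F1 and -0.05 in LW. PER3 ran from 5.40 to 6.34, and its difference was -0.15 ± 0.07 (SE, adjusted p = 0.0852), with -0.02 in CR, -0.22 in F1 and -0.21 in LW. HS pigs were below the TN mean of their breed in 13 of 18 pigs for PER2 and in 14 of 18 for PER3.

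CRY1, which encodes a cryptochrome that represses together with the PER proteins, was read by 2 probes that varied together across pigs (r = 0.58, adjusted p = 0.00165; rho = 0.56, adjusted p = 0.00348, permutation test, n = 35). Leaving out the 2 farthest pigs gave r = 0.52, and r within slides ran from 0.60 to 0.88. The brighter probe, A_72_P255677, read 6.32, 6.38, 6.62, 6.86 and 7.23 in the CR TN pigs and 6.197 to 6.68 (median 6.52) in CR HS. It ran from 5.86 to 7.09 (median 6.56) in F1 TN, 5.85 to 6.84 (median 6.48) in F1 HS, 5.91 to 7.32 (median 6.74) in LW TN and 5.77 to 6.82 (median 6.10) in LW HS. Its spread within groups was wide beside the difference of -0.23 ± 0.14 (SE, adjusted p = 0.175, limma), and no group stood clear of the others. The other probe, A_72_P453794, differed by 0.05 ± 0.09 (SE, adjusted p = 0.712).

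Within F1, the CRY1 probe A_72_P453794 was called, higher in HS by 0.35 ± 0.13 (SE, adjusted p = 0.0405, limma). F1 TN ran from 5.25 to 5.83 (median 5.72) and F1 HS from 5.75 to 6.51 (median 5.87). All 6 HS pigs were above the TN mean but the groups overlapped, and the probe was well above background on 32 of the 35 arrays and on 5 of the 6 F1 TN arrays. In LW the same probe differed by -0.31 ± 0.13 (SE, adjusted p = 0.564), and in CR by 0.10 ± 0.14 (SE). The brighter CRY1 probe differed by -0.07 in F1 (adjusted p = 0.839), so the call in F1 rests on 1 of the 2 probes. It was kept in 30 of the 35 fits that left out 1 array.

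CRY2, the other cryptochrome, had the farthest difference from 0 among the clock gene probes, and the 2 CRY2 probes went apart. A_72_P332498 read 7.67, 7.78, 7.86, 8.07 and 8.65 in the CR TN pigs, and ran from 6.86 to 8.38 (median 7.39) in CR HS. In F1 it ran from 7.94 to 8.67 (median 8.60) in TN and from 6.61 to 7.94 (median 7.32) in HS, so the groups met at a single value. In LW it ran from 7.19 to 8.30 (median 7.95) in TN and from 7.60 to 8.17 (median 7.66) in HS. HS pigs were below the TN mean of their breed in 16 of 18 cases.

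The difference for this CRY2 probe was -0.61 ± 0.15 (SE; 95% interval -0.91 to -0.31; adjusted p = 0.0041, limma). By breed it was -0.53 ± 0.25 (SE, adjusted p = 0.557) in CR, -1.15 ± 0.24 (SE, adjusted p = 0.000687) in F1 and -0.14 ± 0.24 (SE, adjusted p = 0.859) in LW. The F1 effect lay below the LW effect (difference -1.003 ± 0.34, SE), and that difference did not pass after adjustment (adjusted p = 0.122). Without the F1 pigs the climate difference was -0.32 (adjusted p = 0.315), a fit in which none of the 39072 probes was called by limma (6845 at an unadjusted p under 0.05). Within slides it ran from -0.17 to -0.74.

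The other CRY2 probe, O8368, ran from 5.80 to 6.86 over the 35 pigs and differed by 0.17 ± 0.08 (SE, adjusted p = 0.0825), with 0.22 in CR, 0.11 in F1 and 0.20 in LW. HS pigs were above the TN mean of their breed in 16 of 18 cases, the reverse of the first probe. Without F1 TN replicate 2 or without LW TN replicate 4 this probe was called, higher in HS by 0.20 and 0.21 (adjusted p = 0.04996 and 0.0226, limma). Across pigs the 2 probes did not follow each other (r = -0.15, adjusted p = 0.510; rho = -0.23, adjusted p = 0.229, permutation test, n = 35). The mean of the 2 probes differed by -0.22 (adjusted p = 0.0485, limma), a mean over differences of opposite sign.

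**Figure D2:**
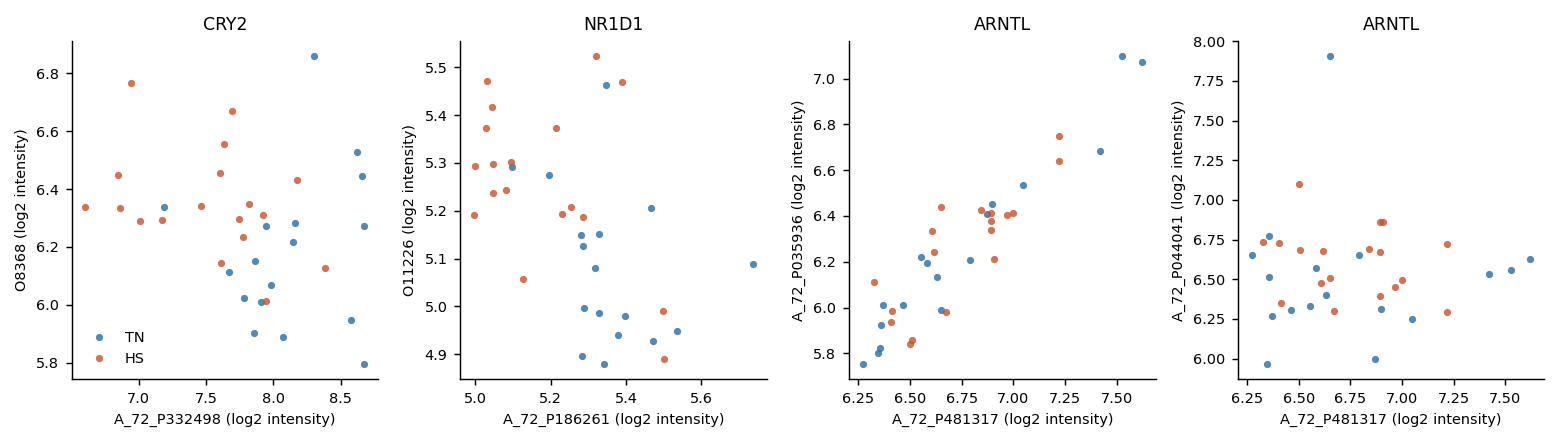
Values of 1 probe against another probe of the same gene, for CRY2, NR1D1 and ARNTL, in log2 intensity on both axes, with 1 point per pig (blue, TN; red, HS; 35 pigs). The pair A_72_P481317 and A_72_P035936 of ARNTL lies along a line (r = 0.93 after removal of group means), whereas the CRY2 pair (r = -0.15) and the NR1D1 pair (r = -0.31) do not rise together.

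The brightness of the array moved with the CRY2 probe A_72_P332498. After removal of the group means the probe was lower on brighter arrays (r with the log2 75th percentile of intensity = -0.66, adjusted p = 0.0025; rho = -0.70, adjusted p = 0.0014, permutation test, n = 35, family of 36 relations). The value of r was -0.66 without the 2 farthest pigs, and within slides it ran from -0.82 to -0.69. Of the other 39071 probes in the table, 995 followed it with r above 0.9, and 0.0486% of all probes had at least that many such partners. No probe followed O8368 with r above 0.9. The relation of A_72_P332498 to the mean of the 9 erythroid markers did not pass (r = 0.38, adjusted p = 0.156; rho = 0.34, adjusted p = 0.173, permutation test, n = 35; within slides r ran from -0.73 to 0.61), nor did that to the mean of 7 neutrophil markers (r = 0.03, adjusted p = 0.910; rho = 0.04, adjusted p = 0.880). With the mean of the 9 erythroid markers of the array as a covariate the difference was -0.37 (adjusted p = 0.164). That mean was 10.7 ± 0.57 (SD; range 9.82 to 11.6) in F1 TN, 9.70 ± 0.64 (SD; 8.58 to 10.3) in F1 HS, 10.2 ± 0.55 (9.42 to 10.8) in CR TN, 9.80 ± 0.57 (9.11 to 10.5) in CR HS, 10.4 ± 0.30 (10.01 to 10.8) in LW TN and 10.14 ± 0.33 (9.55 to 10.4) in LW HS.

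NR1D1, the repressor of ARNTL, was near the background of the array. Its probe A_72_P186261 was well above background on 15 of 35 arrays, 10 of them TN and 5 of them HS. It read 5.10, 5.29, 5.34, 5.35 and 5.38 in the CR TN pigs and ran from 5.00 to 5.50 (median 5.06) in CR HS. It ran from 5.28 to 5.74 (median 5.47) in F1 TN, 5.00 to 5.39 (median 5.19) in F1 HS, 5.19 to 5.40 (median 5.30) in LW TN and 5.03 to 5.25 (median 5.17) in LW HS. The groups overlapped in each breed, and 16 of 18 HS pigs were below the TN mean of their breed.

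The difference of this NR1D1 probe was -0.18 ± 0.06 (SE; 95% interval -0.29 to -0.07; adjusted p = 0.0151, limma), and in F1 it was -0.28 ± 0.10 (SE, adjusted p = 0.0220). It was -0.10 in CR (adjusted p = 0.775) and -0.15 in LW (adjusted p = 0.621). The size depended on the scaling: on intensities already corrected for background and scaled to the 75th percentile it was -0.93 (adjusted p = 0.00268), and with the erythroid mean as a covariate it was -0.10 (adjusted p = 0.304). Without the F1 pigs it was -0.13 (adjusted p = 0.327), in the fit where no probe of the table was called.

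The other NR1D1 probe, O11226, outside the value table, was well above background on 9 of 35 arrays, 2 of 17 in TN and 7 of 18 in HS, so most of its values in both climates are not well above background. In values recomputed from the scanner files its fitted difference was 0.18 ± 0.06 (SE, adjusted p = 0.0227, limma), where 33.4% of the 41466 probes tested were called. In F1 the fitted difference was 0.34 (adjusted p = 0.0105, limma, with 37.9% of probes called). That fit kept a probe by the share of arrays well above background in its best group. This probe was kept through F1 HS alone (3 of 6 arrays). It was thus tested only because F1 HS was high, and neither adjusted p is read as support for a difference. The probe was not well above background on any of the 6 F1 TN arrays and was so on 3 of the 6 F1 HS arrays. Set against the floor of the TN arrays, the F1 HS mean was 1.20-fold higher. That figure sets the HS mean of all 6 arrays against, for each TN array, the higher of its own value and the lowest signal among probes well above background. It is not a firm bound, since the HS mean includes arrays where the probe was not well above background. The F1 TN arrays were also dimmer (75th percentile 149.9 against 237.9), and the part of brightness in this difference was not tested. The fitted differences of the 2 NR1D1 probes had opposite signs, with neither probe well above background on most arrays, and across pigs their r was -0.31 (adjusted p = 0.255; rho = -0.30, adjusted p = 0.229, permutation test, n = 35).

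NR1D2, the paralogue of NR1D1, was well above background on all 35 arrays and was not called. Its probe read 7.28, 7.35, 7.35, 7.42 and 7.80 in CR TN, and over all 35 pigs it ran from 7.07 to 8.03. The difference was -0.05 ± 0.08 (SE; 95% interval -0.21 to 0.11; adjusted p = 0.659, limma), with -0.03 in CR, 0.05 in F1 and -0.17 in LW.

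For CLOCK, which no probe names, the files describe the probe A_72_P079316 as similar to part of horse Clock. It lies outside the member rule and the value table, and it was not well above background on any of the 35 arrays. DBP had no such probe.

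**Figure D3:**
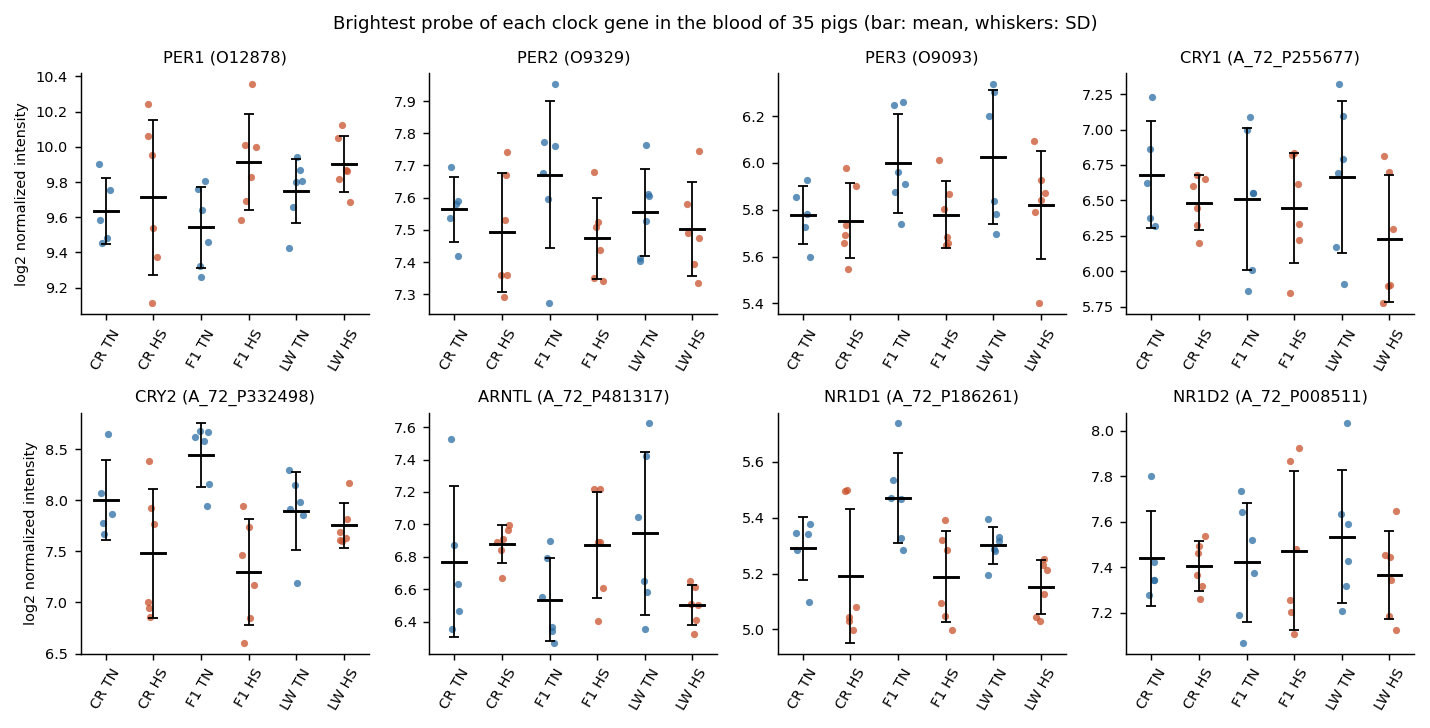
Log2 normalized intensity (vertical axis, a separate scale for each panel) of the brightest probe of each of the 8 measured clock genes, by group, with 1 point per pig (blue, TN; red, HS), the mean as a bar and the SD as whiskers. The TN and HS points overlap in every breed and panel, with the least overlap in F1 for CRY2.

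Taken by breed, the calls lay in F1. In F1, 3 of the 12 clock gene probes were called (CRY2 A_72_P332498, NR1D1 A_72_P186261 and CRY1 A_72_P453794), where 38.7% of all probes were called. In CR and in LW, limma called 0 of the 12 clock gene probes, where 0% of all 39072 probes were called in each breed. At an unadjusted p under 0.05 there was 1 clock gene probe in CR, and there were 2 in LW (3466 and 3404 probes of the whole table). None of the 12 probes had F1 groups free of overlap, which held for 11.7% of all probes. The test of the difference between breeds in the climate effect called 0 of the 12 probes and 0% of all probes by limma, with 3 and 5807 at an unadjusted p under 0.05. So a call in F1 and its absence in CR or LW was not shown to be a difference between the breeds.

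The breeds themselves did not differ in any of the 12 probes with climate in the model. CR against LW called 0 clock gene probes, where 1.08% of all probes were called, F1 against CR called 0, where 0.184% were called, and F1 against LW called 0, where 0.0256% were called. At an unadjusted p under 0.05, 1 probe differed, ARNTL A_72_P044041, with CR below LW by 0.28 on the log2 scale (difference -0.28 ± 0.13, SE, adjusted p = 0.455). When the 6 group means of a probe were put in order, the gap between neighbours was smaller than the pooled SD within groups in all 5 gaps for 10 of the 12 probes. The exceptions were CRY2 A_72_P332498, where F1 TN lay 0.43 above CR TN (pooled SD 0.43), and NR1D1 A_72_P186261, where F1 TN lay 0.17 above LW TN (pooled SD 0.15). For PER1 the order ran from F1 HS (mean 9.91) down to F1 TN (mean 9.54), and for ARNTL A_72_P481317 from LW TN (mean 6.95) down to LW HS (mean 6.503).

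Some clock gene probes varied with each other from pig to pig, and some did so with many other probes of the array. With r above 0.8, CRY1 A_72_P255677 was followed by 827 of the other 39071 probes and ARNTL A_72_P481317 by 94. NR1D2 was followed by 206 and CRY2 A_72_P332498 by 2685, whereas PER1 had 2 such partners and PER2, PER3 and NR1D1 A_72_P186261 had 0. The share of all probe pairs that would pass was not tested, so the count below is not read as a trait of clock genes. Over the 28 pairs of the 8 brightest probes, after removal of the 6 group means, 8 pairs passed a permutation test within groups (100000 resamples, adjusted over the 28 pairs), 5 with a positive and 3 with a negative correlation. The strongest joined ARNTL and NR1D2 (r = 0.76, p = 2e-05, adjusted p = 0.00028; rho = 0.71, adjusted p = 0.00056). Without the 2 pigs farthest from the median r was 0.68, and within slides it ran from 0.54 to 0.82. CRY1 and NR1D2 followed (r = 0.72, adjusted p = 0.00028; rho = 0.69, adjusted p = 0.00084). Leaving out the 2 farthest pigs gave r = 0.70, and r within slides ran from 0.41 to 0.85. CRY1 and ARNTL closed the set (r = 0.65, adjusted p = 0.00215; rho = 0.62, adjusted p = 0.00457). The value of r was 0.63 without the 2 farthest pigs, and within slides it ran from 0.67 to 0.95.

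ARNTL, CRY1 and NR1D2 were thus high together in some pigs and low together in others, in pigs of the same breed and climate. Each of the 3 correlations stayed between 0.59 and 0.79 under the 5 other settings tried and passed the adjusted test in each. They also stayed between 0.60 and 0.79 when any 1 pig was left out. Arrays with a higher 75th percentile of intensity had higher ARNTL A_72_P481317 (r = 0.55, adjusted p = 0.0128; rho = 0.54, adjusted p = 0.0196, permutation test, n = 35), while for CRY1 and NR1D2 that relation did not pass (r = 0.15 and 0.31, adjusted p = 0.467 and 0.156). Without the 2 pigs farthest from the median r was 0.46, and within slides it ran from 0.04 to 0.86.

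**Figure D4:**
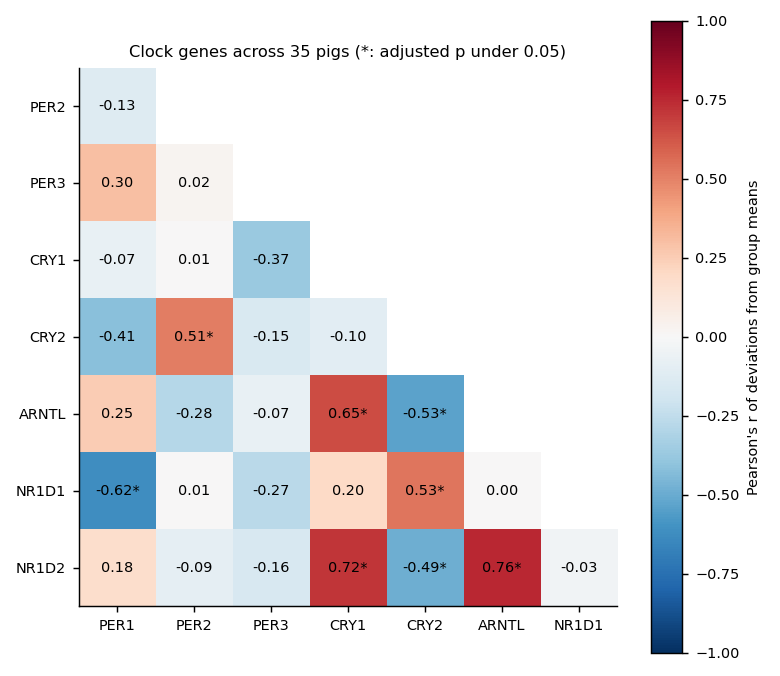
Pearson correlation of the 28 pairs formed by the brightest probes of 8 clock genes over 35 pigs, computed on deviations from the 6 group means (colour scale from -1 to 1). Stars mark the 8 pairs with an adjusted permutation p under 0.05, among them ARNTL with NR1D2 (0.76), CRY1 with NR1D2 (0.72) and CRY1 with ARNTL (0.65).

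The pairs of ARNTL with CRY1 and NR1D2 were read with the brightest ARNTL probe, and A_72_P044041, which did not follow that probe, had r of -0.43 with CRY1 and -0.12 with NR1D2 (adjusted p = 0.096 and 0.553 over 3 pairs; rho = -0.41 and -0.06, adjusted p = 0.0693 and 0.743, permutation test, n = 35). Each of the other 5 pairs held the CRY2 probe A_72_P332498, the NR1D1 probe A_72_P186261 or both, whose genes also have a probe that did not follow them. PER1 and NR1D1 A_72_P186261 ran against each other (r = -0.62, adjusted p = 0.0135; rho = -0.58, adjusted p = 0.0171). Leaving out the 2 farthest pigs gave r = -0.53, and r within slides ran from -0.86 to -0.33. CRY2 A_72_P332498 was correlated with ARNTL (r = -0.53, adjusted p = 0.00497), NR1D2 (r = -0.49, adjusted p = 0.0167), PER2 (r = 0.51, adjusted p = 0.0166) and NR1D1 (r = 0.53, adjusted p = 0.0360). With the ARNTL probe A_72_P044041 it had r of 0.12, of the opposite sign (adjusted p = 0.553 over 3 pairs; rho = 0.08, adjusted p = 0.743, permutation test). By rank, the pairs of CRY2 with the brightest ARNTL probe and with PER2 passed (rho = -0.48 and 0.49, adjusted p = 0.0268 and 0.0337) and those with NR1D2 and NR1D1 did not (rho = -0.44 and 0.45, adjusted p = 0.0528 and 0.0948). Without the 2 farthest pigs, r was -0.46 with ARNTL, -0.42 with NR1D2, 0.48 with PER2 and 0.47 with NR1D1. Within slides the correlation with ARNTL ran from -0.75 to 0.43 and that with NR1D2 from -0.76 to 0.91, so their sign did not hold on every slide, while it ran from 0.21 to 0.79 with PER2 and from 0.38 to 0.80 with NR1D1. With slide means removed PER2 and CRY2 no longer passed (r = 0.35, adjusted p = 0.151), and neither did CRY2 and NR1D1 (r = 0.49, adjusted p = 0.0532), which also failed with recomputed values, with the erythroid mean as a covariate and without the F1 pigs (adjusted p = 0.0574, 0.0793 and 0.101). PER1 and NR1D1 failed without the F1 pigs (r = -0.61, adjusted p = 0.101).

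PER1 and ARNTL, and PER2 and ARNTL, which sit on opposite arms of the loop, had r of 0.25 and -0.28 (adjusted p = 0.187 for both), and PER1 and PER2 had r of -0.13 (adjusted p = 0.749). None of the 3 pairs among the PER genes passed.

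The genes outside the list whose pattern across the 35 pigs was most like each clock gene, by Pearson correlation of deviations from the group means, were chosen by rank. For CRY1 they were MAPK6 (0.93), AFTPH (0.92) and TMEM59 (0.92), for ARNTL CYP51 (0.85), HACE1 (0.85) and ATP2A2 (0.84), and for NR1D2 RIT1 (0.88), RBM39 (0.87) and MED7 (0.85). For PER1 they were POFUT1 (0.77), NCALD (0.77) and PSMD2 (0.74), for PER2 CSN3 (0.76), MYRIP (0.76) and SSB (0.73), and for PER3 COPS6 (0.69), PIGS (0.67) and CLPB (0.64). For NR1D1 A_72_P186261 they were SNRPB2 (0.72), TRPM7 (0.70) and DPY30 (0.69).

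The CRY2 probe A_72_P332498 had the highest correlations in this ranking. Its closest genes were TBX5, a transcription factor known from the heart (0.98), CHRNB1, a subunit of the muscle acetylcholine receptor (0.98), and NTRK3, a neurotrophin receptor (0.98). Neighbours named for other tissues were not particular to it. ATP2A2, close to ARNTL, is described by cardiac muscle, and CSN3, close to PER2, is a casein.

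Of 38 further clock genes, 24 had a probe in the value table, and by their brightest probe 5 rose and 1 fell in HS, beside 34.8% of all probes called. The median difference over the 24 was 0.05, against 0.06 over all probes. Casein kinases and their subunits phosphorylate the clock proteins: CSNK1E, which acts on PER proteins, rose by 0.28 ± 0.11 (SE, adjusted p = 0.0409), CSNK2A2 by 0.25 ± 0.08 (SE, adjusted p = 0.0148) and CSNK2B by 0.19 ± 0.08 (SE, adjusted p = 0.0440). Of the 4 CSNK2B probes 2 were called, and all lay above 0 (0.14 to 0.24). CSNK2A1 had a difference below 0 and was not called (-0.24 ± 0.11, SE, adjusted p = 0.0891, limma). The phosphatase gene PPP1CB had the difference farthest from 0 among the 24 and was not called (-0.60 ± 0.27, SE, adjusted p = 0.0821, limma). Of its 11 probes only the brightest was read. HDAC3, the deacetylase that works with NR1D1 in repression, rose by 0.25 ± 0.09 (SE, adjusted p = 0.0319).

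EP300, an acetyltransferase and coactivator, rose by 0.31 ± 0.11 (SE, adjusted p = 0.0267) by its brightest probe, but of its 7 probes 2 rose and 1 fell (A_72_P339978, by 0.26, adjusted p = 0.00615). RORB, a nuclear receptor of the ROR family that activates ARNTL, fell by 0.40 ± 0.13 (SE, adjusted p = 0.0198). The RORB probe was among those that followed the CRY2 probe A_72_P332498 across pigs (r = 0.93). RORA, its relative in immune cells, differed by 0.12 (adjusted p = 0.285).

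Each of the 6 kept its sign under all 9 other settings, and each lost its call with the erythroid mean as a covariate and without the F1 pigs. The fit without the F1 pigs called no probe of the table, so the loss there says nothing about these genes. With the erythroid mean 0 of the 24 genes were called, and the share of all probes called in that fit is not given here. CSNK1E, CSNK2B, HDAC3 and EP300 also lost their calls with the mean of 7 neutrophil markers as a covariate. The share of all probes called in that fit is not given here either, so neither loss is read as particular to these genes. NFIL3 and HLF, transcription factors of the clock output, differed by -0.13 (adjusted p = 0.513) and 0.01 (adjusted p = 0.960), and the repressors BHLHE40 and BHLHE41 by 0.04 (adjusted p = 0.719) and -0.10 (adjusted p = 0.274). CIRBP, an RNA-binding protein known to fall with warmth in cultured cells, rose by 0.33 ± 0.12 (SE, adjusted p = 0.0347), with 0.35 in CR, 0.70 in F1 and -0.05 in LW. Of 5 measured glucocorticoid targets, a route by which clocks of peripheral tissues are known to be set, SGK1 fell by 0.58 ± 0.19 (SE, adjusted p = 0.0163), and FKBP5, DUSP1, KLF9 and ZBTB16 were not called, beside 34.8% of all probes called. CIRBP and SGK1 each have 2 probes in the value table, and only the brightest was read.

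**Figure D5:**
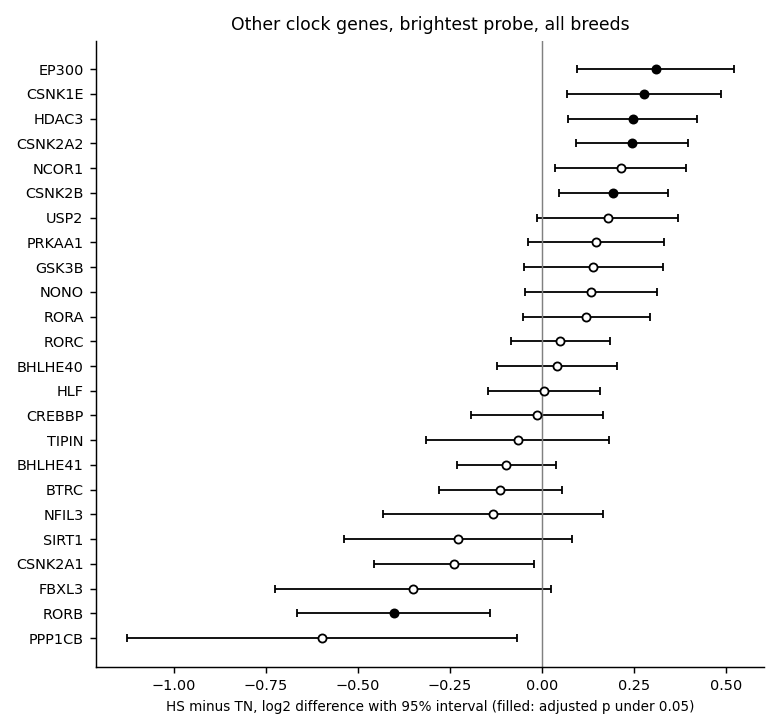
Difference between HS and TN pigs (log2 scale, horizontal axis) of the brightest probe of each of 24 further clock genes, over all breeds. Bars are 95% intervals (1.96 SE), and filled symbols have an adjusted p under 0.05: EP300, CSNK1E, HDAC3, CSNK2A2 and CSNK2B lie above 0 and RORB (-0.40) below.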

How the data were processed

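RNA from PAXgene whole blood of 35 pigs was hybridized to 1-colour (Cy3) Agilent arrays, scanned and read with Feature Extraction 10.10.1.1, per the labels. The authors deposited the scanner intensity of every spot, and a table of log2 values for 39072 of 60305 probes, which they made by quantile normalization of the median intensity over arrays and a filter on expressed probes whose rule is not given in the sources used here. The log2 table, as deposited by the authors, was used for the main tests. Recomputing it from the deposited intensity gave values that differed by 0.0235 in the median, in absolute size (r = 0.999971).

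Climate was tested with limma 3.58.1 (R 4.3.3) with breed as an additive term, and breeds and their interaction with climate from the 6 group means, two-sided, with Benjamini-Hochberg adjustment over all probes of a fit. The methods' further terms for pen, day, father and mother could not be fitted, as they carry no label. Replicate numbers only name the pigs. Each of the 35 arrays held a separate pig, and their number limits the precision. Per the methods of the study, pigs shared pens, litters and days of slaughter. The fits and permutations here treated each pig as independent. Their p-values, and the shares of all probes called, therefore make no allowance for that sharing. Correlations used deviations from the 6 group means, with 100000 permutations of pigs within groups, in numpy 2.4.6. For relations within slides, 4 of the 5 slides (7 or 8 arrays each, all 6 groups on each) were used, since the fifth held 4 arrays. All members with a probe are named, with the brightest probe by mean log2 as representative. Other clock genes are named where called, up to 6, with a few more uncalled ones and the temperature and glucocorticoid genes added as context after their values were seen. A probe "well above background" is the scanner software's own call, and 217 flagged spots were left out of recomputed values. The members, gene lists and tests were chosen with earlier results of these data known. The fits were tested on simulated data with independent noise for each probe and pig. Variation shared between probes or between pigs was not simulated, so that test cannot tell how such variation affects the calls. Alternatives were values recomputed from the scanner files, 75th percentile scaling of the processed intensity, normexp background correction (offset 50), probes well above background on all arrays, slide as a block, array weights, the mean of 9 erythroid markers as a covariate, no F1 pigs, the mean of a gene's probes, and each array left out. A covariate of 7 neutrophil markers was added after seeing the data, as were both cell covariates within breeds.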

Additional observations from a re-analysis of the deposited data

Results flagged for a closer look

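Of 72 sets of values (12 clock gene probes in 6 groups), 6 held a pig far from the others of its group by Dixon's criterion, where chance gives about 1 in 20. For ARNTL A_72_P044041, LW TN replicate 4 had 7.906, and the next pig 6.771. For NR1D2, CR TN replicate 1 had 7.802, above the next at 7.424. For CRY1 A_72_P453794, F1 TN replicate 3 had 5.249, below the next at 5.657, and CR HS replicate 1 had 5.511, below the next at 5.903. For CRY2 O8368, CR HS replicate 5 had 6.765, above the next at 6.333, and F1 HS replicate 1 had 6.013, below the next at 6.292. No clock gene probe had all HS pigs of 1 breed above the TN mean and all HS pigs of another breed below it.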

How the results depend on the processing

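The count of 2 clock gene probes called for HS against TN was 1 among probes well above background on all arrays, which leaves out NR1D1, and 0 with the erythroid covariate and without the F1 pigs. It was 2 or 3 under the other settings, and between 2 and 3 when 1 array was left out, with CRY2 O8368 as the added call, higher in HS, without F1 TN replicate 2 (0.20, adjusted p = 0.04996) and without LW TN replicate 4 (0.21, adjusted p = 0.0226), NR1D1 O11226, also with a positive difference, in recomputed values, and PER1 at 75th percentile scaling (0.27, adjusted p = 0.042), with array weights (0.28, adjusted p = 0.00476) and without CR TN replicate 1, CR HS replicate 1 or CR HS replicate 4 (adjusted p = 0.0444, 0.0173 and 0.0406). In F1, the count of 3 was 5 with recomputed values (PER1 and NR1D1 O11226 added), 5 with a slide block (PER1 and PER2 added), 4 with the neutrophil covariate (PER2 added), 2 among probes well above background on all arrays (PER1 added, NR1D1 and CRY1 A_72_P453794 left out of that test) and 0 with the erythroid covariate. It stayed at 3 with normexp, where NR1D1 was lost (-0.12, adjusted p = 0.0923) and PER1 added (0.36, adjusted p = 0.0470), and at 75th percentile scaling and with array weights, where CRY1 A_72_P453794 was lost (adjusted p = 0.0583 and 0.0885) and PER1 added (adjusted p = 0.0298 and 0.0118). It was between 1 and 4 when 1 array was left out, the 1 being without F1 HS replicate 5, which lost CRY1 and NR1D1. CRY1 was also lost without F1 TN replicate 1, 3 or 6 or F1 HS replicate 6, and NR1D1 without F1 TN replicate 2 or F1 HS replicate 6. The difference between the F1 and LW effects, with 0 calls, had 3 with array weights (ARNTL 0.84, CRY1 A_72_P453794 0.63 and CRY2 A_72_P332498 -0.99, adjusted p = 0.0364, 0.0364 and 0.0368). The added calls of NR1D1 O11226 concern a probe that the recomputed fit kept through F1 HS alone, so they are not read as support. All counts of 0 in CR, in LW and between breeds stayed at 0. The share of all probes called differs between fits too. For HS against TN it was 34.8% in the main fit and 33.4% with recomputed values, and no probe was called without the F1 pigs. In F1 it was 38.7% and 37.9% with recomputed values. It is not given here for the other settings, so a changed count is not read as particular to the clock gene probes. ARNTL, at -0.003, changed sign with the mean of its probes (0.04) and between -0.04 and 0.05 when 1 array was left out. The pairs past the test numbered 6 to 10 under 5 settings, against 8. The causes were not tested. With 5 or 6 pigs per group, differences within a breed have intervals that are wide beside the values, and NR1D1 near background has little signal.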
